A study of Oryctolagus cuniculus with 134 samples.

Results

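The response of the mitral valve (MV) to a cholesterol-rich diet with cardiac irradiation was compared with that of the tricuspid valve (TV) of rabbits in the same protocol. The comparison used every library whose labels gave the mitral or the tricuspid valve and either Cholesterol+IR or Control, which made 27 of the 134 RNA-seq libraries of the series: 7 MV IR/CHT, 6 MV Ctrl, 7 TV IR/CHT and 7 TV Ctrl. The quantity of interest for each gene was the interaction, that is the log2 fold change of IR/CHT against Ctrl in the mitral valve minus the same fold change in the tricuspid valve. A positive interaction is called larger in the mitral valve below, and a negative one larger in the tricuspid valve.

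All animals were male New Zealand White rabbits that entered a 16-week protocol at 12 weeks of age. Ctrl rabbits ate standard chow without added vitamin D2. IR/CHT rabbits ate chow enriched with 0.3% cholesterol, drank water with vitamin D2 (25000 U per day per 2.5 kg) for the first 15 days and received X-ray irradiation of the heart after 8 weeks of the diet. The beam is described as aimed at the aortic valve and thoracic aorta, with 24 Gy in 3 fractions of 8 Gy given 48 h apart stated for the rabbits irradiated on chow, so neither valve compared here was the stated target. A further group, CHT, had the same diet and vitamin D2 without irradiation (6 MV and 6 TV libraries) and separated the diet from the irradiation. Lard rabbits, fed chow with 5% lard and given vitamin D2, entered no comparison, but their 7 MV and 7 TV libraries were part of the model and of its estimate of the spread. No RNA was measured for irradiation alone or vitamin D2 alone in the libraries used here, and the 3 exposures of the IR/CHT group cannot be told apart against Ctrl.

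The mitral valve closes the left atrioventricular opening and works against the high pressure of the left ventricle, while the tricuspid valve closes the right one at low pressure. Both are thin leaflets of interstitial cells in a collagen and proteoglycan matrix, covered by endothelium and inserted into heart muscle. When cholesterol accumulates in cells, SREBP2 activity falls and with it cholesterol synthesis and LDL uptake, whereas oxysterols activate the LXR receptors, which switch on cholesterol export. Macrophages that take up more lipoprotein than they can export become foam cells, filled with lipid droplets and enlarged lysosomes.

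Each of the 27 libraries held 14866435 to 23041138 gene counts, so 1 count per 1000000 (CPM) was about 17.5 reads and had a counting SD of 23.9%. The 13 rabbits with both valves comprised 6 Ctrl and 7 IR/CHT animals, and the other Ctrl rabbit gave a tricuspid library only. Heart muscle contractile genes were higher in the tricuspid than in the mitral samples: the mean log2 CPM of the list had a median of 8.46 in TV Ctrl and 8.04 in TV IR/CHT, against 5.55 in MV Ctrl and 5.31 in MV IR/CHT. In bulk samples such as these, fewer cells of a type and less RNA per cell cannot be told apart.

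A single tricuspid Ctrl library, L168, went against its label. Its heart muscle contractile mean was 4.97, while the other 6 TV Ctrl libraries lay between 8.15 and 9.94. On 694 genes that were higher in the mitral valve under both treatments in a fit without L168, its mean log2 CPM was 5.14, above the MV Ctrl range of 4.06 to 4.76 and far above the other TV Ctrl libraries at 2.63 to 3.45. On 473 genes higher in the tricuspid valve it stood at 3.09, below the MV Ctrl range of 3.13 to 4.05 and the TV Ctrl range of 5.07 to 5.97. The TV IR/CHT libraries lay at 3.35 to 4.47 on the 694 genes, reaching into the MV Ctrl range, and at 4.17 to 5.29 on the 473 genes. On the first 2 principal components of log2 CPM, TV IR/CHT L197 (58.6 and -60.4) lay near MV Ctrl L262 (59.6 and -68.7). TV IR/CHT L276 (2.93 and -45.6) also lay apart from the other TV IR/CHT libraries. L197 and L276 were left out only singly. Counts below use all libraries unless said otherwise, and values without the library labelled L168 are given beside many of them. In the mitral valve, 3 Ctrl libraries (L156, L199 and L262) had endothelial means of 2.90 to 3.74, against 6.03 to 6.22 in the other 3, and their macrophage means of 3.29 to 3.51 were also below the 4.18 to 4.44 of the others. The part of endothelial content in the results was not tested beyond the values given without these libraries and with the endothelial mean as a covariate.

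**Figure D1:**
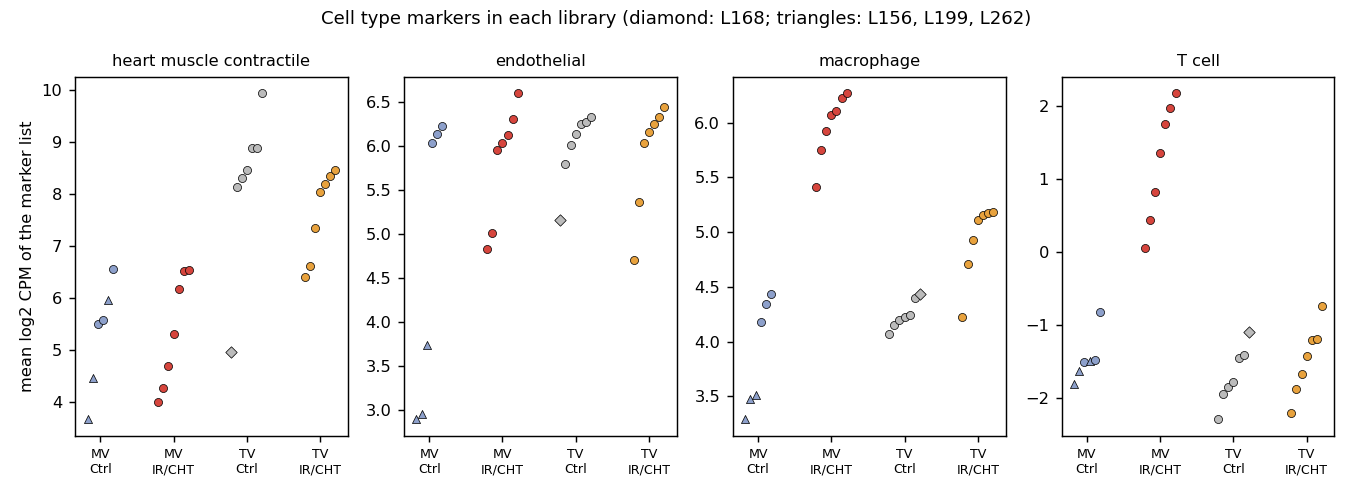
Mean log2 CPM of 4 marker lists (y axes) in each of the 27 libraries, by valve and treatment on the x axis. The diamond is the tricuspid Ctrl library L168, which lies at 4.97 for heart muscle contractile genes below all other TV libraries, and the triangles are the 3 MV Ctrl libraries low in endothelial markers.

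Of 15890 genes tested, 1519 (9.56%) had an interaction at an FDR below 0.05 with edgeR's quasi-likelihood test: 1005 (6.32%) were larger in the mitral valve and 514 (3.23%) larger in the tricuspid valve. Without L168 the counts were 1067 (6.74%) and 939 (5.93%), and 856 of the 1005 and 513 of the 514 genes were called again, all of them in the same direction. Leaving out the mitral IR/CHT library L175 gave 914 genes larger in the tricuspid valve. Without the 3 MV Ctrl libraries low in endothelial markers, 432 (2.61%) and 220 (1.33%) genes were called. In either direction, the share of all genes called was 12.7% without L168 and 3.94% without these 3. It was 4.35% without L168 and these 3 together (all 4 below). Counts of listed genes below are to be read beside these shares.

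Genes larger in the mitral valve had a median log2 fold change of 1.65 in the mitral valve and -0.02 in the tricuspid valve. Of these 1005 genes, 818 rose in the mitral valve (FDR below 0.05 and a fold change above 1.5) and were not called in the tricuspid valve, and 5 rose in both. Without L168, 111 of the same 1005 genes rose in the tricuspid valve, and of the 1067 genes larger in the mitral valve in that fit 637 rose in the mitral valve alone and 76 in both. Genes larger in the tricuspid valve had medians of -0.71 and 0.12, and 338 of the 514 fell in the mitral valve without a call in the tricuspid valve (419 of 939 without L168). Over all genes tested, the medians were 0.03 in the mitral and 0.01 in the tricuspid valve.

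Within the mitral valve, IR/CHT changed 2453 genes (15.4%), of which 1635 (10.3%) rose and 818 (5.15%) fell. Without L168 the numbers were 2712, 1741 and 971. Within the tricuspid valve the count depended on L168: 65 genes (0.409%; 34 rose and 31 fell) with it and 1570 genes (9.91%) without it, of which 1306 (8.25%) rose and 1.67% of the genes tested fell. Among the 65, 62 were called again without L168. Of the 1570, 388 were also DEGs of the mitral valve, 366 of them in the same direction. In that fit 17.1% of all genes tested were mitral DEGs.

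**Figure D2:**
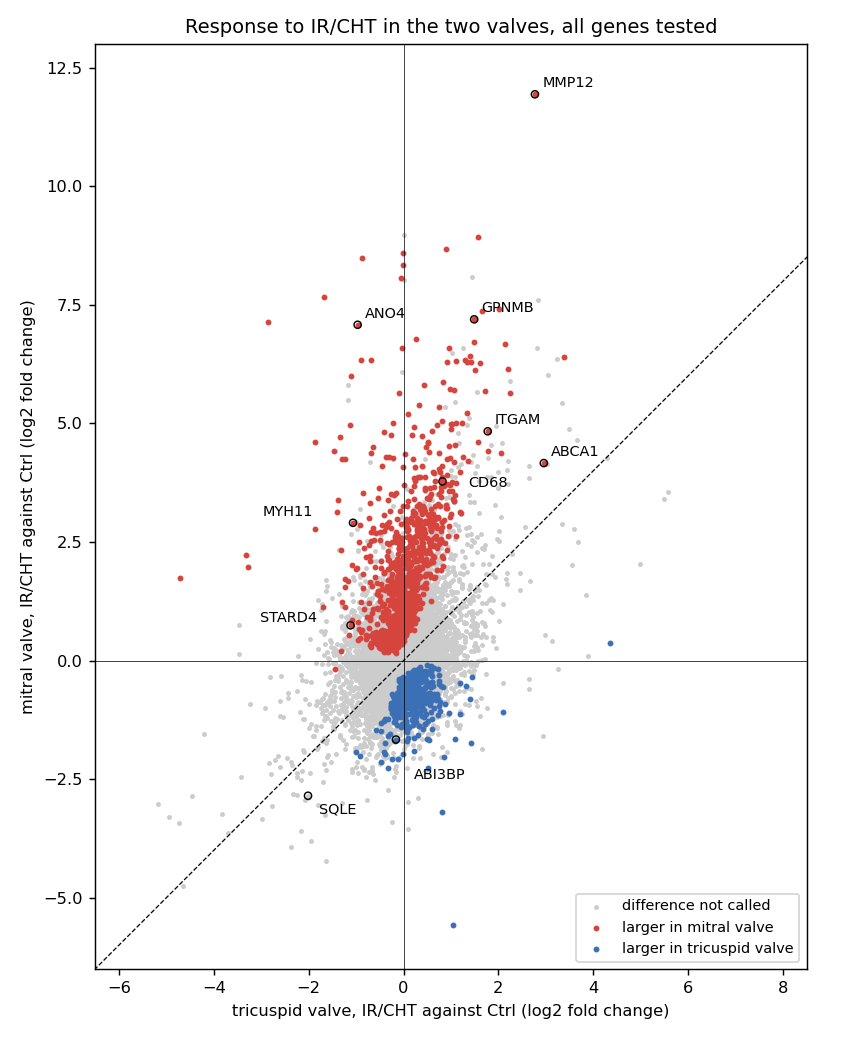
Log2 fold change of IR/CHT against Ctrl in the tricuspid valve (x axis) and the mitral valve (y axis) for each of 15890 genes, with all libraries. Red and blue points are the 1005 and 514 genes with an interaction larger in the mitral or the tricuspid valve, and the dashed line marks equal responses. SQLE lies at -2.01 and -2.85.

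Genes of cholesterol synthesis fell in both valves. Of 14 tested genes of the pathway, 11 fell in the mitral and 10 in the tricuspid valve, with median log2 fold changes of -1.20 and -0.98, and 10 also fell in the tricuspid valve without L168. The interaction was called for 2 of the 14 (14.3%, against 9.56% of all genes), with L168 and without it. With the rabbit as a block it was called for 5. All of these were larger in the tricuspid valve, that is with the deeper fall in the mitral valve. SQLE, the squalene epoxidase of the pathway, ranged from 30.7 to 49.3 CPM in MV Ctrl (median 37.6) and from 3.32 to 6.53 in MV IR/CHT (median 5.46). In the tricuspid valve it ranged from 12.7 to 33.5 CPM in Ctrl (median 21.0) and from 3.52 to 6.99 in IR/CHT (median 5.37). The treatments did not overlap in either valve. The log2 fold changes of SQLE were -2.85 and -2.01, and the interaction of -0.84 (SE 0.30) missed the threshold (FDR 0.0718) but passed it in 9 of 41 alternatives (lowest FDR 0.0322).

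FDFT1, the squalene synthase upstream of SQLE, fell by 1.93 in the mitral and by 1.01 in the tricuspid valve, with an interaction of -0.93 (SE 0.31, FDR 0.0447). It ranged from 101 to 155.6 CPM in MV Ctrl (median 133) and from 14.4 to 47.3 in MV IR/CHT (median 36.5), with medians of 112 and 53.5 in the tricuspid valve. The mitral groups did not overlap. The FDFT1 call was lost in 19 of 41 alternatives, among them the fit without the 3 MV Ctrl libraries (-1.02, FDR 0.0875).

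Genes of cholesterol export rose in both valves. Of 9 tested LXR targets and efflux genes, 6 rose in the mitral and 5 in the tricuspid valve, with medians of 2.66 and 0.90 (6 genes and a median of 1.68 in the tricuspid valve without L168). ABCA1, the transporter that loads cholesterol onto apolipoprotein A-I, ranged from 38.4 to 82.4 CPM in MV Ctrl (median 55.0) and from 844 to 1279 in MV IR/CHT (median 1057). The tricuspid libraries ranged from 61.7 to 151.8 CPM in Ctrl (median 117) and from 683 to 995 in IR/CHT (median 814). All treated libraries lay far above all Ctrl libraries of the same valve. ABCA1 rose by 4.16 and 2.96 on the log2 scale, with an interaction of 1.21 (SE 0.30, FDR 0.00581), which dropped below the threshold without the 3 MV Ctrl libraries (0.88, FDR 0.145).

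STARD4, a carrier that moves cholesterol between membranes inside the cell, went opposite ways. It ranged from 4.94 to 12.1 CPM in MV Ctrl (median 6.33) and from 7.15 to 15.0 in MV IR/CHT (median 12.1), whereas in the tricuspid valve it ranged from 3.58 to 8.23 CPM in Ctrl (median 6.86) and from 1.49 to 4.22 in IR/CHT (median 2.98). The treatments overlapped in each valve. STARD4 rose by 0.74 (FDR 0.0288) in the mitral valve and fell by 1.12 (FDR 0.0152) in the tricuspid valve, and the interaction was 1.86 (SE 0.36, FDR 0.000279), or 1.92 (FDR 0.000123) without L168.

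Foam cell and lipid storage genes separated the valves. Of 12 tested genes, 9 had a called interaction, all larger in the mitral valve, and the list's median interaction was 1.94 against 0.03 over all genes. In the mitral valve 10 genes rose (median 2.10), and in the tricuspid valve 1 rose (median 0.32). Without L168 there were again 9 called interactions, with 3 genes (CHI3L1, GPNMB and OLR1) rising in the tricuspid valve, and without the 3 MV Ctrl libraries 6 were called.

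GPNMB, a glycoprotein of lipid-laden macrophages, ranged from 9.89 to 16.4 CPM in MV Ctrl (median 11.3) and from 576.1 to 2698 in MV IR/CHT (median 1942). The tricuspid libraries ranged from 2.63 to 23.9 CPM in Ctrl (median 6.43) and from 15.1 to 36.1 in IR/CHT (median 24.6). The mitral groups were far apart, and the tricuspid groups overlapped through L168, the highest Ctrl library. GPNMB rose by 7.19 in the mitral valve, and its interaction was 5.71 (SE 0.60, FDR 4.34e-09). The tricuspid fold change was 1.49 (FDR 0.0772) with L168 and 1.95 (FDR 0.00288) without it.

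LIPA, the lysosomal acid lipase that frees cholesterol from its esters, ranged from 20.2 to 34.7 CPM in MV Ctrl (median 32.1) and from 154.9 to 467 in MV IR/CHT (median 282). In the tricuspid valve it ranged from 20.3 to 46.4 CPM in Ctrl (median 45.7) and from 31.0 to 65.6 in IR/CHT (median 47.3). The tricuspid groups overlapped, and the log2 fold changes were 3.29 in the mitral and 0.33 (FDR 0.729) in the tricuspid valve, an interaction of 2.97 (SE 0.32, FDR 4.91e-09). PLIN2, which coats lipid droplets, had an interaction of 1.65 (SE 0.21, FDR 1.64e-07), with medians of 27.0 CPM in MV Ctrl and 103 in MV IR/CHT but 28.2 and 38.2 in the tricuspid valve. SPP1, the secreted phosphoprotein osteopontin, had medians of 111 and 474 CPM in the mitral valve and 47.8 and 41.2 in the tricuspid valve, and an interaction of 2.15 (SE 0.50, FDR 0.00256).

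**Figure D3:**
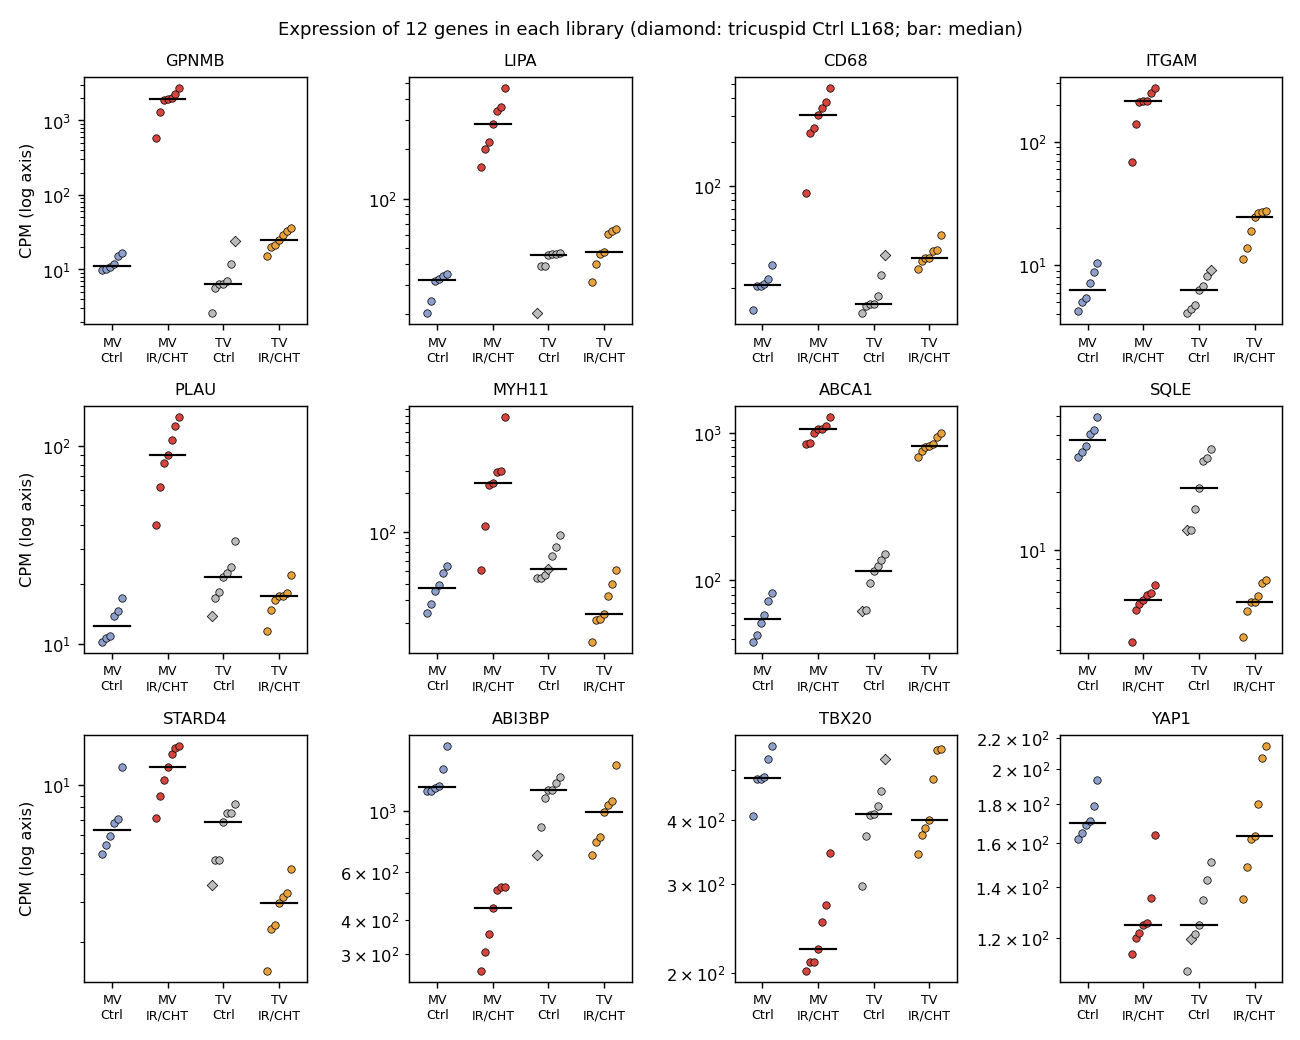
CPM on log axes of 12 genes in each of the 27 libraries, by valve and treatment, with a bar at each median and a diamond for the tricuspid Ctrl library L168. For LIPA, CD68 and PLAU all 7 MV IR/CHT libraries lie above the other 3 groups, ABCA1 and SQLE move in both valves, and TBX20 lies lower in MV IR/CHT only.

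Lysosomal genes followed the lipid storage genes. Of 14 tested, 12 had an interaction larger in the mitral valve (10 without L168, 9 without the 3 MV Ctrl libraries), with a median interaction of 1.41. In the mitral valve 12 rose and in the tricuspid valve none did, although CTSB rose there without L168 (0.64, FDR 0.039). CTSB, the protease cathepsin B, ranged from 1259 to 3914 CPM in MV IR/CHT against 351 to 518 in MV Ctrl, and its interaction was 2.16 (SE 0.29, FDR 6.46e-07). CTSK, cathepsin K, which cuts collagen, had an interaction of 2.04 (SE 0.27, FDR 3.46e-07). ATP6V1A, a subunit of the proton pump that acidifies lysosomes, had medians of 23.4 and 72.4 CPM in the mitral valve and 26.4 and 27.1 in the tricuspid valve, an interaction of 1.63 (SE 0.21, FDR 1.84e-07). NPC2 and NPC1, which carry cholesterol out of the lysosome, had interactions of 1.45 (SE 0.21, FDR 3.29e-06) and 1.02 (SE 0.20, FDR 0.000464).

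Macrophage markers were higher in the treated libraries of both valves, by more in the mitral valve. The mean log2 CPM of the list ranged from 3.29 to 4.44 in MV Ctrl (median 3.85), from 5.41 to 6.27 in MV IR/CHT (median 6.07), from 4.07 to 4.43 in TV Ctrl (median 4.23) and from 4.23 to 5.18 in TV IR/CHT (median 5.11). The mitral groups did not overlap, whereas 1 TV IR/CHT library lay within the TV Ctrl range. Of 17 tested markers, 13 rose in the mitral valve, 9 had an interaction larger in the mitral valve and 1, ITGAM, rose in the tricuspid valve. Without L168 the last count was 8, and 8 interactions were called, against 5 without the 3 MV Ctrl libraries.

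CD68, a glycoprotein of macrophage lysosomes, ranged from 14.1 to 28.8 CPM in MV Ctrl (median 21.1), from 89.9 to 467 in MV IR/CHT (median 307), from 13.6 to 33.9 in TV Ctrl (median 15.7) and from 27.2 to 46.2 in TV IR/CHT (median 32.2). Only the mitral groups stood apart. Its interaction was 2.96 (SE 0.37, FDR 1.64e-07), and the tricuspid rise of 1.02 passed the test without L168 (FDR 0.0131) but not with it (0.82, FDR 0.176). ITGAM, the integrin chain CD11b of myeloid cells, ranged from 4.24 to 10.5 CPM in MV Ctrl (median 6.30), from 69.1 to 270.99 in MV IR/CHT (median 213), from 4.13 to 9.11 in TV Ctrl (median 6.33) and from 11.3 to 27.4 in TV IR/CHT (median 24.7). Here the treatments did not overlap in either valve, and the log2 fold changes were 4.83 and 1.77, with an interaction of 3.06 (SE 0.43, FDR 1.27e-06).

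CD163, the haemoglobin scavenger receptor of resident macrophages, had no called difference. Its medians were 31.9 and 46.8 CPM in the mitral valve and 83.1 and 102 in the tricuspid valve, with log2 fold changes of 0.58 (FDR 0.292) and 0.03 (FDR 0.999) and an interaction of 0.55 (FDR 0.604) that took the opposite sign without the 3 MV Ctrl libraries (-0.12).

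Genes of innate recognition had 10 of 15 interactions called with L168 and the same number without it, all larger in the mitral valve, and a median interaction of 1.72. TYROBP, an adaptor of myeloid receptors, had medians of 8.62 and 122 CPM in the mitral valve and 10.6 and 17.7 in the tricuspid valve, an interaction of 3.13 (SE 0.42, FDR 7.3e-07). TLR2, a receptor for bacterial lipoproteins, was at 3.81 and 14.3 CPM against 3.98 and 3.61, an interaction of 2.42 (SE 0.36, FDR 4.8e-06). C5AR1, the receptor of the complement fragment C5a, had an interaction of 2.93 (SE 0.44, FDR 4.42e-06). None of the 15 genes rose in the tricuspid valve with L168, and 5 rose without it. The number of called interactions was 7 without the 3 MV Ctrl libraries.

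Antigen presentation and adhesion genes moved likewise. Of 8 MHC class II presentation genes, 5 were larger in the mitral valve (4 without L168, 3 without the 3 MV Ctrl libraries), with a median interaction of 1.54. None rose in the tricuspid valve with L168, and 3 (CD74, CIITA and HLA-DMA) rose without it. HLA-DMA, which loads peptides onto class II molecules, had an interaction of 2.05 (SE 0.45, FDR 0.0013), although reads of this multigene family may be shared between its members. Its call was lost on either plate alone and without L168 and the 3 MV Ctrl libraries together. CTSS, the cathepsin that processes the invariant chain, rose from a median of 13.0 to 280 CPM in the mitral valve and had medians of 17.1 and 35.8 in the tricuspid valve, an interaction of 3.63 (SE 0.51, FDR 1.12e-06). Of 14 adhesion genes and integrins, 5 were larger in the mitral valve (4 without L168). ITGAM rose in the tricuspid valve with L168, and ITGAL, ITGAM, ITGAX and ITGB2 rose there without it. ITGAL, the integrin chain of lymphocytes and other leukocytes, had medians of 1.94 and 217 CPM against 1.29 and 4.30 in the tricuspid valve. Its tricuspid change was not called with L168 (FDR 0.204), and the log2 fold change was 1.63 (FDR 0.0281) without it.

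Of the lymphocyte genes with a symbol in the table, 5 of 9 T cell genes and 5 of 11 B and plasma cell genes passed the filter on low counts. For a gene at or near 0 in every group but MV IR/CHT, such as CD28, the lack of a tricuspid call says little. The mean log2 CPM of the T cell list ranged from 0.06 to 2.18 in MV IR/CHT (median 1.36), above -1.81 to -0.82 in MV Ctrl, whereas TV IR/CHT at -2.21 to -0.74 (median -1.43) overlapped with TV Ctrl at -2.30 to -1.10 (median -1.79). Of 5 tested T cell genes 3 (CD2, CD28 and CD5) had an interaction larger in the mitral valve, with L168 and without it, against 2 (CD28 and CD5) without the 3 MV Ctrl libraries and CD28 alone without all 4. CD28, the co-stimulatory receptor, was at 0 to 0.240 CPM in MV Ctrl and 2.78 to 14.4 in MV IR/CHT, but at most 0.307 CPM in any tricuspid library. Of 5 B and plasma cell genes, CD22, a B cell lectin, and JCHAIN, the joining chain of secreted IgM and IgA, had called interactions of 4.61 (SE 0.74, FDR 1.81e-05) and 4.49 (SE 0.64, FDR 2.09e-06). JCHAIN ranged from 5.11 to 56.7 CPM in MV IR/CHT, above every library of the other 3 groups except 1 TV Ctrl library at 7.46.

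Among 13 cytokine genes and receptors, 5 had a called interaction, but only IL7R did without L168 (2.25, FDR 0.00831). In the same fit 7 of the 13 rose in each valve (CSF1, CSF1R, CSF2RB, CSF3R, IL10RA, IL1RN and TNFRSF1B in the tricuspid valve). Without the 3 MV Ctrl libraries IL7R was not called (1.67, FDR 0.106), and without all 4 libraries none of the 13 was. Of 16 interferon response genes, 4 had a called interaction (3 without L168, 1 without the 3 MV Ctrl libraries and 0 without all 4), 9 rose in the mitral valve and, without L168, 5 (IRF7, IRF8, OAS2, OAS3 and OASL) rose in the tricuspid valve. Of 10 complement genes 3 (30%, against 9.56% of all genes) had a called interaction, all larger in the mitral valve. With the rabbit as a block, 4 were larger in the mitral valve and 3 in the tricuspid valve. C3AR1 and C5AR1 were called without L168, without the 3 MV Ctrl libraries and without all 4, and C1S was larger in the tricuspid valve without L168. In that fit C1QA, C1QB, C1QC, C1R and C1S rose in the tricuspid valve.

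Several of the interactions with the smallest FDR lay outside these lists. ANO4, a membrane protein of the anoctamin family of ion channels and lipid scramblases, ranged from 0.473 to 1.03 CPM in MV Ctrl (median 0.910), from 48.4 to 150 in MV IR/CHT (median 133), from 0.486 to 1.42 in TV Ctrl (median 0.877) and from 0.228 to 0.777 in TV IR/CHT (median 0.516). All 7 MV IR/CHT libraries stood far above the other 20. Its interaction was 8.05 (SE 0.60, FDR 1.23e-13), the smallest FDR of all genes. NYAP2, a phosphoprotein of PI3K signaling known from neurons, was at 29.8 to 156.04 CPM in MV IR/CHT and at most 1.21 CPM in any other library. MPP1, a membrane scaffold protein, CADM1, an adhesion molecule of the immunoglobulin superfamily, and PPM1H, a protein phosphatase, had interactions of 2.28, 2.53 and 3.46, with FDRs of 2.74e-09, 4.91e-09 and 4.97e-08.

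Proteases that degrade matrix were part of the mitral response. PLAU, the urokinase plasminogen activator, ranged from 10.3 to 17.1 CPM in MV Ctrl (median 12.4), from 39.9 to 139 in MV IR/CHT (median 89.8), from 13.9 to 33.0 in TV Ctrl (median 21.9) and from 11.6 to 22.4 in TV IR/CHT (median 17.4). The tricuspid groups overlapped and the mitral groups did not. PLAU had an interaction of 3.19 (SE 0.30, FDR 2.59e-10). MMP12, the macrophage elastase, was at 132 to 964 CPM in MV IR/CHT, at most 0.481 CPM (8 reads) in MV Ctrl and at most 2.03 CPM in the tricuspid valve. Because the Ctrl counts were at or near 0, the size of its fitted interaction (9.17, FDR 0.000606) rests on the prior count, and its call was lost with the rabbit as a block (FDR 0.0535), on plate 1 alone and without all 4 Ctrl libraries (FDR 0.0708). Of 17 proteases and inhibitors (29.4% called, against 9.56% of all genes), 4 were larger in the mitral valve and 1 in the tricuspid valve. Without L168 these numbers were 4 and 3 (MMP2, TIMP3 and TIMP4), and MMP12, MMP2 and MMP9 rose in the tricuspid valve. The numbers were 2 (MMP12 and PLAU) and 1 without the 3 MV Ctrl libraries, and 1 (PLAU) and 1 without all 4. TIMP4, an inhibitor of matrix metalloproteinases, had medians of 26.8 and 6.77 CPM in the mitral and 21.8 and 16.7 in the tricuspid valve and an interaction of -1.67 (SE 0.39, FDR 0.00276).

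Cell division genes rose in the mitral valve. Of 23 tested, 22 rose there (median 1.95), none rose in the tricuspid valve (median 0.31; NCAPH and PLK1 rose without L168), and 10 had a called interaction, all larger in the mitral valve (also 10 without L168). Without the 3 MV Ctrl libraries 13 of the genes rose in the mitral valve and 1, TPX2, had a called interaction. In that fit 3.94% of all genes tested had a called interaction. KIF11, the motor that separates the spindle poles, ranged from 1.12 to 4.61 CPM in MV Ctrl (median 2.70) and from 6.33 to 15.6 in MV IR/CHT (median 11.7), with medians of 1.81 and 1.87 in the tricuspid valve. Its interaction was 2.07 (SE 0.48, FDR 0.00265), and without the 3 MV Ctrl libraries 1.56 (FDR 0.0823). TPX2, a spindle assembly factor, had an interaction of 1.17 (SE 0.24, FDR 0.000578) and 0.92 (FDR 0.0326) without those libraries. Of 19 DNA replication genes, 6 were larger in the mitral valve (7 without L168, 3 without the 3 MV Ctrl libraries), among them MCM4, a subunit of the replicative helicase (1.73, SE 0.35, FDR 0.000543), and POLE, the catalytic subunit of DNA polymerase epsilon (2.09, SE 0.43, FDR 0.000675). TOP2A, the topoisomerase of dividing cells, rose in the mitral valve (1.47, FDR 0.000439), but its interaction of 1.13 missed the threshold (FDR 0.0908).

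Genes of the DNA damage response, which irradiation is known to activate, had a share of called interactions near that of all genes. It was 2 of 15 p53 targets and damage genes (13.3%, against 9.56% of all genes in either direction). Each was larger in the mitral valve, as were 6.32% of all genes, and 1 was called without L168. TIGAR, a p53 target that lowers glycolytic flux, had medians of 3.05 and 15.5 CPM in the mitral valve and 7.07 and 4.44 in the tricuspid valve, an interaction of 3.16 (SE 0.61, FDR 0.000326). Of 9 immediate early and stress genes, ATF3, a stress-induced transcription factor, was larger in the mitral valve (3.44, SE 0.57, FDR 3.28e-05), and EGR2, an early growth response factor, in the tricuspid valve. EGR2 and EGR3 rose in the tricuspid valve without L168. TFRC, the transferrin receptor for iron uptake, and SLC46A1, the proton-coupled folate transporter, had interactions of 1.58 (SE 0.30, FDR 0.000293) and 2.81 (SE 0.56, FDR 0.000455).

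Smooth muscle genes split. MYH11, the myosin heavy chain of smooth muscle, ranged from 23.8 to 55.1 CPM in MV Ctrl (median 37.3), from 50.9 to 778 in MV IR/CHT (median 241.2), from 44.6 to 95.7 in TV Ctrl (median 51.8) and from 14.3 to 51.6 in TV IR/CHT (median 23.5). The groups overlapped slightly in each valve. It rose by 2.90 in the mitral valve, the tricuspid log2 fold change was -1.07 (FDR 0.271), and the interaction was 3.97 (SE 0.57, FDR 2.08e-06). ACTG2, the smooth muscle gamma actin, had an interaction of 3.14 (SE 0.59, FDR 0.000227), whereas ACTA2, the alpha actin also made by activated interstitial cells, rose by 1.48 in the mitral valve without a called interaction (1.12, FDR 0.224). SYNPO2, an actin-binding protein of muscle, went the other way (-0.96, SE 0.21, FDR 0.00146). In all, 2 of 10 smooth muscle genes were larger in the mitral and 1 in the tricuspid valve (30% called, against 9.56% of all genes). MEF2C, a transcription factor of muscle and endothelial development, was larger in the mitral valve (1.60, SE 0.27, FDR 3.28e-05).

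Genes that fell in the mitral valve and not in the tricuspid valve included matrix, signaling and transcription factor genes. ABI3BP, an extracellular matrix protein, ranged from 1189 to 1732 CPM in MV Ctrl (median 1224), from 260.6 to 529 in MV IR/CHT (median 441), from 691 to 1339 in TV Ctrl (median 1194) and from 691 to 1479 in TV IR/CHT (median 991). The tricuspid groups overlapped across their whole ranges. ABI3BP fell by 1.67 in the mitral valve and its interaction was -1.51 (SE 0.26, FDR 5.27e-05). TBX20, a T-box factor required for valve development, ranged from 407 to 558 CPM in MV Ctrl (median 484), from 203 to 344 in MV IR/CHT (median 223), from 297 to 526.3 in TV Ctrl (median 411) and from 342 to 550 in TV IR/CHT (median 401). Only MV IR/CHT was set apart from its Ctrl group, and the interaction was -1.09 (SE 0.20, FDR 0.000207), or -1.19 without L168 and -1.14 without the 3 MV Ctrl libraries, both called.

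The gene with the smallest FDR in this direction was CNGA2, a subunit of the cyclic nucleotide-gated channel known from olfactory neurons, with medians of 16.1 and 5.75 CPM in the mitral and 15.3 and 21.5 in the tricuspid valve (-1.71, SE 0.25, FDR 4.14e-06). ZBTB20, a zinc finger repressor, had medians of 522 and 291 CPM in the mitral and 460 and 506 in the tricuspid valve (-0.93, SE 0.17, FDR 9.75e-05). YAP1, the coactivator at the end of the Hippo pathway, had opposite differences of similar size, with medians of 170 and 125 CPM in the mitral and 125 and 163 in the tricuspid valve. Its log2 fold changes of -0.42 (FDR 0.00244) and 0.42 (FDR 0.0359) were both under the 1.5-fold limit, and the interaction was -0.84 (SE 0.15, FDR 7.52e-05).

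Of 25 Wnt pathway genes, 8 fell in the mitral valve and none was called in the tricuspid valve. The interaction was larger in the tricuspid valve for 4 (16% called, against 9.56% of all genes), with a median over the list of -0.40. With the rabbit as a block 10 were called in that direction. Without the 3 MV Ctrl libraries none was called and 5 genes fell in the mitral valve, and without L168 the number called was 10 (AXIN2, FRZB, LEF1, NKD1, RSPO3, SFRP4, TCF7, WIF1, WNT2B and WNT5A), and AXIN2, FZD2, NKD1, WIF1 and WNT2B rose in the tricuspid valve. RSPO3, an R-spondin that amplifies Wnt signals, ranged from 43.0 to 73.9 CPM in MV Ctrl (median 54.4) and from 9.26 to 43.8 in MV IR/CHT (median 21.1), with medians of 49.5 and 56.2 in the tricuspid valve. FRZB and WIF1, secreted Wnt antagonists, moved with it, at -1.02 (SE 0.25, FDR 0.00387) and -1.47 (SE 0.39, FDR 0.00952) against -1.31 (SE 0.34, FDR 0.00882) for RSPO3. All 3 calls were lost without the 3 MV Ctrl libraries, where the interactions were -0.88 (FDR 0.0561) for FRZB, -1.37 (FDR 0.0574) for WIF1 and -1.19 (FDR 0.0706) for RSPO3. WIF1 was called again without all 4 libraries (-1.52, FDR 0.0293).

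In the TGF-beta and BMP pathway, 4 of 22 genes were larger in the tricuspid valve and 1 in the mitral valve (5 and 1 without L168). In all, 22.7% were called, against 9.56% of all genes. TGFBR3, the co-receptor betaglycan, and LTBP1, which holds latent TGF-beta in the matrix, had interactions of -0.88 (SE 0.17, FDR 0.000271) and -0.79 (SE 0.18, FDR 0.00216). ID2, a BMP target that blocks basic helix-loop-helix factors, was the gene larger in the mitral valve (1.09, SE 0.27, FDR 0.0058), but not without the 3 MV Ctrl libraries (0.83, FDR 0.132). Of 16 ossification genes, SPP1 was larger in the mitral valve, while TNFRSF11B, the decoy receptor osteoprotegerin, and ENPP1, which makes the mineralization inhibitor pyrophosphate, were larger in the tricuspid valve (-0.82, SE 0.21, FDR 0.00823 and -0.77, SE 0.21, FDR 0.0131) and fell in the mitral valve. Without L168, BMP4 and SOX9 were called in the same direction as well, and SOX9 rose in the tricuspid valve. With all libraries, 18.8% of the ossification genes were called.

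Proteoglycan genes differed among themselves. Of 22 collagens and matrix genes, 3 were larger in the tricuspid valve and 1 in the mitral valve (4 and 1 without L168, with BGN added). With all libraries, 18.2% of the list was called, against 9.56% of all genes. DCN, decorin, fell by 1.27 in the mitral valve (interaction -0.85, SE 0.26, FDR 0.0271), and HAPLN1, the link protein of hyaluronan and versican, fell by 0.79 (interaction -1.34, SE 0.36, FDR 0.0095). VCAN, versican, had medians of 8221 and 6441 CPM in the mitral valve and 3827 and 5192 in the tricuspid valve, with an interaction of -0.91 (SE 0.26, FDR 0.0169). LUM, lumican, went the other way, from a median of 258.4 to 456 CPM in the mitral valve and from 246.99 to 156.5 in the tricuspid valve, an interaction of 1.18 (SE 0.30, FDR 0.00716). None of these 4 passed the threshold without the 3 MV Ctrl libraries, where the interactions were -0.85 for DCN, -1.27 for HAPLN1, -0.95 for VCAN and 1.04 for LUM. Without all 4 libraries HAPLN1 (FDR 0.0464), VCAN (FDR 0.0357) and LUM (FDR 0.0332) were called again.

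Nerve and glial genes fell in the mitral valve for 4 of 9 tested members, with a list median of -0.98 there and -0.13 in the tricuspid valve. The number that fell was 2 without the 3 MV Ctrl libraries. ERBB3, the neuregulin receptor of Schwann cells, ranged from 77.0 to 171.97 CPM in MV Ctrl (median 82.1) and from 17.8 to 69.8 in MV IR/CHT (median 44.5), with medians of 52.4 and 78.8 in the tricuspid valve. The mitral groups did not overlap, and the interaction was -1.87 (SE 0.42, FDR 0.00182). Without the 3 MV Ctrl libraries, of which L156 was the highest for ERBB3, the mitral change was not called (-0.94, FDR 0.0778) but the interaction was (-1.68, FDR 0.027). NCAM1, a neural cell adhesion molecule, had an interaction of -0.79 (SE 0.14, FDR 0.000109).

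Lists for other cells of the samples followed. None of 11 endothelial genes had a called interaction (2 did with the rabbit as a block), and 3 rose in the mitral valve. Their median interaction was 0.77, but -0.14 without the 3 MV Ctrl libraries, where none rose. No interaction was called for any of 16 contractile and 18 other heart muscle genes (medians 0.69 and 0.87), 8 adipocyte genes and 6 neutrophil genes. The adipocyte genes had median log2 fold changes of -0.88 in the mitral valve, where 3 fell and 1 rose, and -1.77 in the tricuspid valve, where LEP fell. Without L168, ADIPOQ, CIDEA, CIDEC, LEP and PPARG fell in the tricuspid valve. The 3 red blood cell and 2 mesothelial genes tested were not called either. Without L168 the neutrophil gene LTF was called, larger in the tricuspid valve. In that fit CSF3R, LTF and MMP9 rose in the tricuspid valve, and 1 of the 6 neutrophil genes rose in the mitral valve. Of 13 interstitial and fibroblast markers (30.8% called), 1 was larger in the mitral and 3 in the tricuspid valve (1 and 4 without L168, and 0 without the 3 MV Ctrl libraries). TNNC1, the troponin C of heart muscle, ranged from 52.9 to 1323 CPM in TV Ctrl and from 98.1 to 548.9 in TV IR/CHT, and its interaction of 0.74 had an SE of 0.99. Mitochondrial respiration genes, which heart muscle expresses strongly, had 2 of 12 interactions called with L168 (16.7%, against 9.56% of all genes). Without L168 there were 8, and all were larger in the mitral valve in either fit. In the latter fit 9 of the 12 fell in the tricuspid valve (median -0.75). The heart muscle contractile median in the tricuspid valve was -0.99 in the same fit. With the rabbit as a block, 11 of the 12 were called, and without the 3 MV Ctrl libraries none was. Of these genes only COX5B was followed singly with the heart muscle mean as a covariate, where its call was kept. The part of heart muscle content in the mitochondrial difference was otherwise not tested gene by gene.

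Other lists were not tied to 1 cell type. Of 15 iron and oxidative stress genes, 6 (40%) were larger in the mitral valve, with L168 and without it, and without L168 5 of the 15 rose in the tricuspid valve. Of 13 chemokine genes 2 (15.4%) were larger in the mitral valve, with L168 and without it, but none without the 3 MV Ctrl libraries. Of 14 valve and heart transcription factors, 1 was larger in the mitral and 1 in the tricuspid valve (14.3% called, near the 9.56% of all genes), with 1 and 3 without L168.

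**Figure D4:**
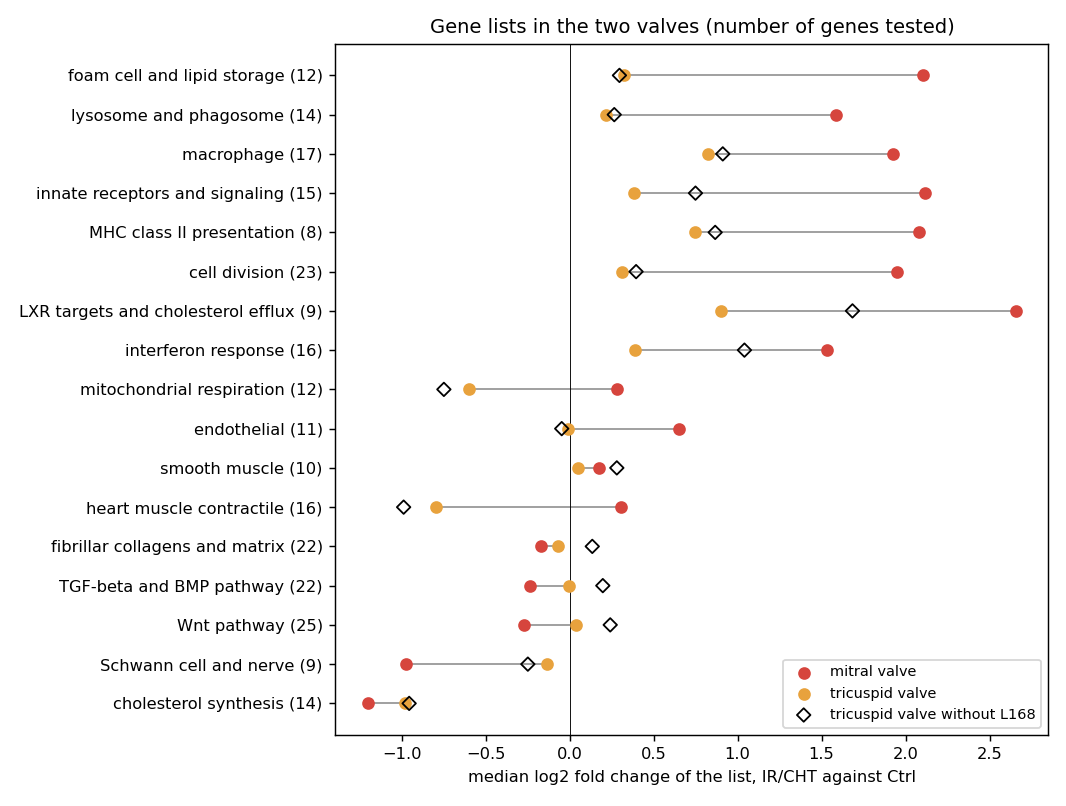
Median log2 fold change of IR/CHT against Ctrl over the tested genes of 17 lists (x axis), in the mitral valve (red), the tricuspid valve (orange) and the tricuspid valve without L168 (open diamonds), with the number of genes in brackets. The valves lie far apart for lipid storage (2.10 and 0.32) and less far apart for cholesterol synthesis (-1.20 and -0.98).

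The comparison within rabbits does not involve L168, whose rabbit had no mitral library. For each rabbit the log2 CPM of the tricuspid valve was subtracted from that of the mitral valve. For ANO4 this difference ran from -0.76 to 0.66 in the 6 Ctrl rabbits and from 5.78 to 8.38 in the 7 IR/CHT rabbits, and for GPNMB from -0.14 to 1.90 and from 4.85 to 6.48. TBX20 differed from 0.13 to 0.70 in Ctrl and from -1.19 to -0.22 in IR/CHT. All 7 IR/CHT rabbits lay beyond all 6 Ctrl rabbits for these genes and for LIPA, PLIN2, CD68, ITGAM, PLAU, MYH11, ABCA1, ABI3BP, YAP1, TIMP4, ERBB3 and CNGA2, while 3 of 7 did for SQLE. Most of these genes were named for a small interaction p in the same libraries, so their separation within rabbits is not separate support. With the rabbit as a block, the interaction was called for 2866 genes (18.0%): 1509 (9.50%) larger in the mitral and 1357 (8.54%) larger in the tricuspid valve. Of the 1519 genes called without the block, 1408 were among them, all in the same direction.

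**Figure D5:**
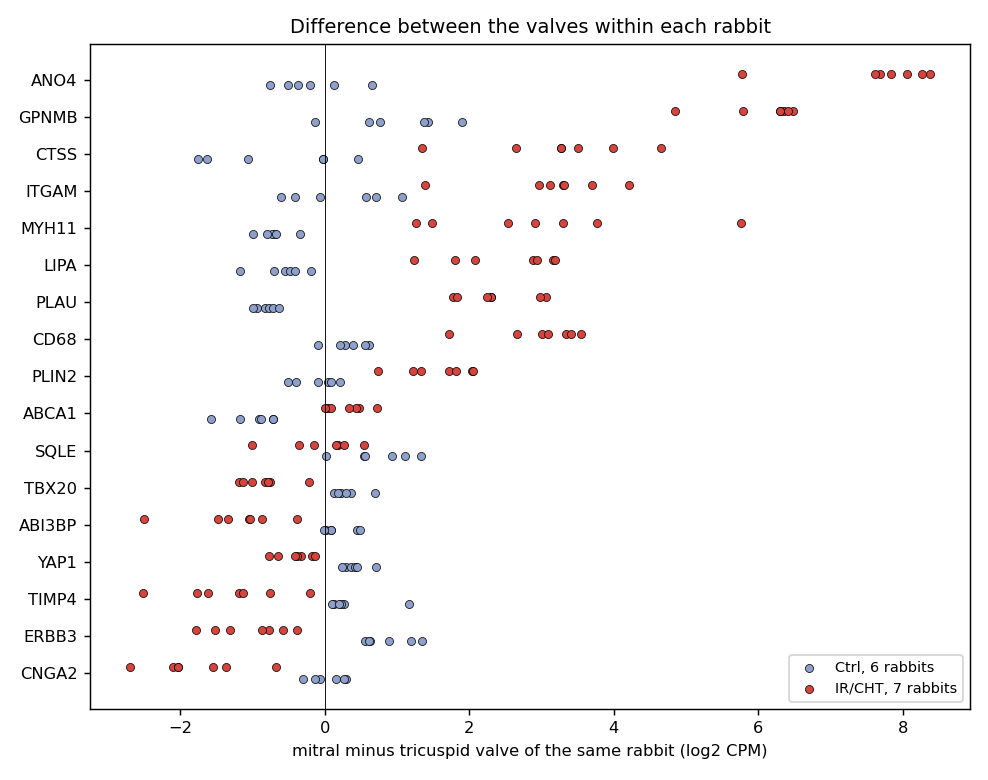
Difference between the mitral and the tricuspid valve of the same rabbit (log2 CPM, x axis) for 17 genes, with 1 point for each of 6 Ctrl (blue) and 7 IR/CHT rabbits (red). The treatments do not overlap for any gene shown except SQLE. Most genes shown were named for a small interaction p in these libraries.

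The CHT group addressed how much of this difference was present without irradiation. The interaction of valve and irradiation on the diet, (MV IR/CHT minus MV CHT) minus (TV IR/CHT minus TV CHT), uses no Ctrl library and was called for none of the 15890 genes (852 had an unadjusted p below 0.05; smallest FDR 0.0822 for CTSV). DESeq2, the limma-voom fit with the rabbit as a random effect and the edgeR fit with the plate as a covariate each called 1 gene, CTSV, a lysosomal cathepsin whose reads may be shared with close relatives, at 1.20 (FDR 0.0101), 1.26 (FDR 0.00424) and 1.32 (FDR 0.0066). The edgeR fits without L168 and without all 4 Ctrl libraries also called 1 gene each. The plates were not balanced in this contrast. All 6 MV CHT libraries were on plate 1, whereas TV CHT had 4 on plate 1 and 2 on plate 2. MV IR/CHT and TV IR/CHT each had 4 on plate 1 and 3 on plate 2.

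The interaction of valve and CHT against Ctrl was called for 354 genes (2.23%), 340 of them larger in the mitral valve. It was counted only with all libraries. It shares its Ctrl libraries, L168 included, with the IR/CHT interaction, so the values are given side by side only. GPNMB stood at 4.71 for CHT and 5.71 for IR/CHT, with a difference of 0.99 from irradiation on the diet. CD68 stood at 2.28 and 2.96, ITGAM at 2.85 and 3.06, LIPA at 1.99 and 2.97, PLAU at 2.35 and 3.19, and MYH11 at 4.32 and 3.97. TBX20 stood at -0.35 (FDR 0.465) and -1.09, ABI3BP at -0.68 (FDR 0.226) and -1.51, and JCHAIN at 2.10 (FDR 0.0755) and 4.49. For none of these was the difference between CHT and IR/CHT itself called, with an FDR of 0.732 for TBX20 and JCHAIN.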

How the data were processed

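Total RNA of dissected, snap-frozen valves was made into stranded libraries from a pico-input kit and sequenced in pairs on a NovaSeq instrument. The authors demultiplexed the reads with bcl2fastq 2.20 and mapped them to OryCun 2.0, per the submitters' processing notes, and deposited raw read counts per Ensembl gene from the nf-core rnaseq pipeline, unnormalized, in 1 table per plate. No other unit was used. Counts of 29587 genes were filtered with filterByExpr, leaving 15890 (10770 with a symbol), normalized by TMM and fitted with edgeR 4.0.16 (quasi-likelihood, robust; R 4.3.3) with 1 mean per valve and treatment over the 53 mitral and tricuspid libraries of Ctrl, CHT, IR/CHT and Lard, which share 1 estimate of the spread. FDR is the Benjamini-Hochberg adjusted p over all genes tested. An interaction was called at an FDR below 0.05, and a change within a valve also needed a fold above 1.5. CPM are TMM-scaled; log2 CPM have a prior count of 2. L numbers are library names from the labels. Alternatives were DESeq2 1.42.0, limma 3.58.1 (voom), other filters, scalings, plates, covariates and left-out libraries.

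Members and gene lists were chosen with earlier results of these data known. Named genes were the 12 smallest p with a symbol in each direction of the interaction, the 3 smallest in each list and a fixed set of 25 marker genes, of which not all are printed and a few are not reported here; members of a list named only beside its count were listed as called. Whether 2 libraries came from 1 rabbit was read from the number at the start of each library's column name. The 13 rabbits of Ctrl and IR/CHT with both valves had a median correlation of 0.383 between their valves' deviations from the group means (9 of 13 above 0.1), against -0.04 for different rabbits. Replicates are different rabbits within a group, but both valves of a rabbit enter the model. Coordinates and sequences were not used here.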

Additional observations from a re-analysis of the deposited data

Results flagged for a closer look

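In 132 groups of values examined, 7 had a highest or lowest library whose gap to the next exceeded Dixon's 95% critical value, and chance gives this in about 1 in 20 groups. The tricuspid Ctrl library L168 accounted for 3 of them: its heart muscle contractile mean was 4.97 (others 8.15 to 9.94), its log2 CPM of DCN 9.88 (others 10.70 to 11.23) and of LIPA 4.35 (others 5.28 to 5.54). The remaining 4 were ANO4 in MV Ctrl L262 at -0.78 (others 0.00 to 0.19), CD68 in MV IR/CHT L175 at 6.49 (others 7.85 to 8.87), ERBB3 in MV Ctrl L156 at 7.43 (others 6.27 to 6.596) and TIMP4 in TV IR/CHT L177 at 2.99 (others 3.79 to 4.30), all in log2 CPM.

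The response differed between the valves, by a test of the interaction itself, for 1519 genes. Among the genes described, the mitral minus tricuspid difference in log2 fold change was positive for MMP12 (9.17), NYAP2 (8.34), ANO4 (8.05), GPNMB (5.71), JCHAIN (4.49), MYH11 (3.97), PLAU (3.19), TYROBP (3.13), ITGAM (3.06), LIPA (2.97), CD68 (2.96), SLC46A1 (2.81), SPP1 (2.15), CTSK (2.04), STARD4 (1.86), PLIN2 (1.65), MEF2C (1.60), NPC2 (1.45), ABCA1 (1.21) and TPX2 (1.17). It was negative for ERBB3 (-1.87), TIMP4 (-1.67), ABI3BP (-1.51), WIF1 (-1.47), RSPO3 (-1.31), TBX20 (-1.09), DCN (-0.85) and YAP1 (-0.84).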

How the results depend on the processing

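The 82 named genes with a called interaction, of 92 examined, kept their direction in every alternative, and 64 of them lost the call in no alternative other than the fits of 1 plate alone. With the rabbit as a replicate block the interaction was called for 2866 genes (1509 larger in the mitral, 1357 in the tricuspid valve), and as a random effect for 2580 (1177 in the tricuspid valve). Plate 2 alone, with 2 or 3 libraries per group, gave 105 (102 and 3), 430 mitral and 0 tricuspid DEGs by edgeR (518 at an unadjusted p below 0.05). Plate 1 alone gave 326 tricuspid DEGs, and the model of only the 4 groups compared gave 21. L168 was 1 of the 2 TV Ctrl libraries on plate 2. The 3 MV Ctrl libraries low in endothelial markers were among the 4 MV Ctrl libraries on plate 1. Without the 3 MV Ctrl libraries low in endothelial markers the interaction count was 652 (432 and 220), and without these and L168 it was 717 (435 and 282), with 1545 tricuspid DEGs. With the endothelial mean as a covariate there were 781 genes larger in the tricuspid valve and 3864 mitral DEGs. These 3 alternatives were chosen after seeing the data. The interaction with irradiation on the diet called 1 gene in 5 alternatives (DESeq2, limma-voom with the rabbit as a random effect, plate as a covariate, without L168 and without all 4 Ctrl libraries).

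Leaving out single libraries moved the interaction count between 1256 and 2006, genes larger in the mitral valve between 795 and 1091, genes larger in the tricuspid valve between 397 and 939 (914 without MV IR/CHT L175), mitral DEGs between 2068 and 2848 and tricuspid DEGs between 44 and 1570, with the highest tricuspid values without L168. Leaving out L168 also moved the median interaction over all genes from 0.03 to -0.10. Counts under DESeq2 (1908), its size factors (1601), no filter (1224), plate as a covariate (1611) and the heart muscle mean as a covariate (1521) stayed within 1.5 times. Uncalled interactions that took the opposite sign were CD163 (-0.12 and -0.031 without 3 and 4 Ctrl libraries) and TNNC1 (plate 2 -0.94, heart muscle covariate -0.28). The cause of these changes was not tested. A gene at 1 CPM rests on about 17.5 reads per library.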

Other observations

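Without L168, some genes rose in the tricuspid valve and did not rise in the mitral valve. SOCS2, a feedback inhibitor of growth hormone signaling, rose by 0.71 in the tricuspid valve (FDR 0.000449) against a mitral log2 fold change of -0.40 (FDR 0.0124), an interaction of -1.12 (FDR 1.33e-05). RARRES2, the chemoattractant chemerin, rose by 0.68 with a mitral value of -0.34 (FDR 0.0421) and an interaction of -1.03 (FDR 9.47e-05), and NDRG1, a stress-responsive gene, rose by 1.20 with a mitral value of 0.03 (interaction -1.17, FDR 0.00476). C1S, a serine protease of the first complement component, rose by 0.91 with a mitral value of 0.15 (interaction -0.76, FDR 0.015). APOD, a lipid-binding apolipoprotein, rose in both valves, by 4.14 in the tricuspid and 2.75 in the mitral valve, and its interaction of -1.39 was not called (FDR 0.115). In the same fit 91 genes fell in the tricuspid valve with an interaction larger in the mitral valve. These genes were chosen after their values were seen, from the fit without L168.

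The number of genes that differed between the valves within a treatment was 1362 in Ctrl and 5417 in IR/CHT with all libraries, 5425 and 6267 without L168, 41 and 5439 without the 3 MV Ctrl libraries low in endothelial markers, and 1447 and 6458 without all 4.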
